A study of Homo sapiens with 3 samples.

Results

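The response described here is that of LNCaP cells to 20 nM bufalin for 24 h, set against cells given the ethanol vehicle for the same time. It covers the probes of a whole-genome bead array that were detected on at least 1 of the 2 arrays, where detected means a deposited detection p-value below 0.01. Of 47323 probes on the array, 16112 met that rule: 13164 were detected on both arrays, 1448 on the 20 nM array only and 1500 on the vehicle array only. Of the 8661 genes that the probe annotation names, 8349 had such a probe, and for 8346 the gene's brightest named probe was among them.

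LNCaP is a human prostate cancer line derived from a lymph node metastasis, and it responds to androgens. The study treated it with 20 nM bufalin, with 10 nM bufalin or with ethanol alone, in medium with serum, and hybridised total RNA of 1 sample of each to an Illumina bead array. All groups are therefore 1 culture of 1 line, with no replicate array, and every fold below compares 2 arrays and not 2 conditions with a known spread. No p-value was computed.

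Bufalin, a steroid found in toad venom, binds and blocks the catalytic subunit of the sodium pump, Na,K-ATPase. The pump exports sodium and imports potassium, so its block changes the ion balance on which transport, cell volume and protein synthesis depend. Stressed cells are known to use immediate early transcription factors, growth arrest genes and autophagy, and genes for growth and division are the other large programs of a cultured cancer line.

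The deposited signals are bead intensities in arbitrary units that still contain the background, which was estimated at 115.8 units on the 20 nM array and 112.9 units on the vehicle array. The brightest probe read 25114 on the 20 nM array and 25603 on the vehicle array. Signals printed below are these deposited values, and they are not comparable between genes because each probe has its own affinity. Folds were taken after background correction and quantile normalization, so they differ from the ratio of the printed signals: for dim probes they are mostly larger, and for some bright probes they are smaller. A gene whose probe was detected on 1 array only is given as at least N-fold, with the undetected side set at the lowest signal that the array detected or at its own value, whichever was higher. Calls at 2-fold use the measured value, so a gene called past 2-fold can have a bound under it.

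Of the 16112 probes, 1979 (12.3%) had a 20 nM value at least 2-fold above vehicle, and 2060 (12.8%) had one at least 2-fold below it. Among the 8346 named genes, each represented by its brightest probe, 1224 were at least 2-fold higher (14.7%) and 1386 at least 2-fold lower (16.6%). These 2 shares are the background for the gene families below. Named genes come only from the shorter of the 2 deposited tables, and no label or header states how its probes were selected. Few dim named genes lie near 0 in the plot of all named genes, so both background shares belong to a selected set. Of the 10535 named probes, 15.3% were at least 2-fold higher and 16.2% at least 2-fold lower, while of the 3056 detected probes outside the shorter table only 1.73% were higher and 1.93% lower.

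Large changes were more often upward. Among probes detected on both arrays, 239 were at least 4-fold higher and 158 at least 4-fold lower, 37 were at least 8-fold higher and 12 at least 8-fold lower, and 6 were at least 16-fold higher while 0 were at least 16-fold lower. At the other end, 4023 probes (25.0%) lay within 1.2-fold of vehicle. When the probes were cut by mean signal into 4 equal bins of 4028, the brightest bin held the smallest shares past 2-fold, 8.96% higher and 9.09% lower, the dimmest held 11.8% higher and 11.7% lower, and the 2 bins between them held the largest shares, 14.4% higher and 16% lower in the dimmer of them and 14.0% higher and 14.4% lower in the brighter.

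**Figure D1:**
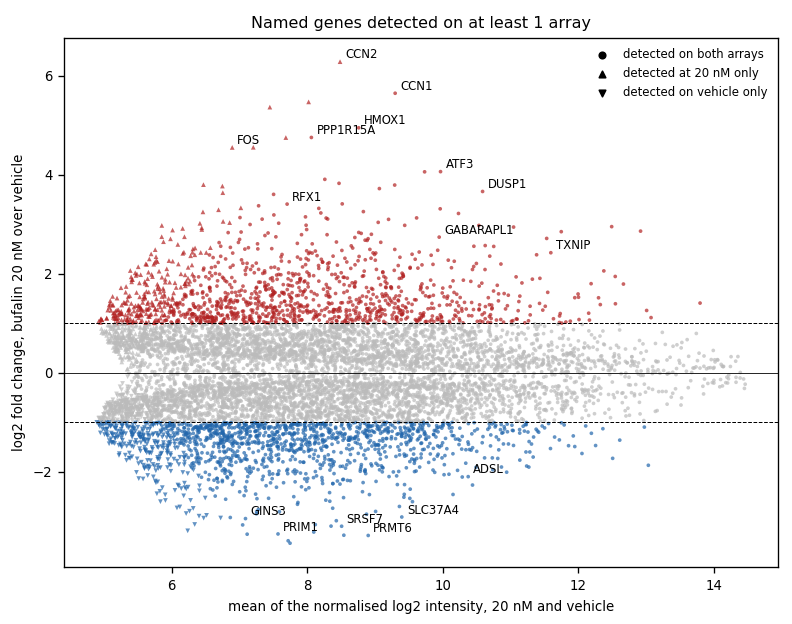
Log2 fold change of bufalin 20 nM over vehicle (y axis) against the mean normalised log2 intensity of both arrays (x axis). The points are the 8346 named genes whose brightest probe was detected on at least 1 array. Red points are at least 2-fold higher, blue points at least 2-fold lower, triangles mark genes detected on 1 array only, and the labelled points CCN2, CCN1 and HMOX1 lie farther from 0 than any lower gene.

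Several genes with the largest folds on both arrays were immediate early or stress genes. PPP1R15A, the GADD34 subunit that lets translation resume under stress, had 1506 at 20 nM and 150.02 on vehicle, 27.0-fold higher. ATF3, a stress-induced leucine zipper factor, had 4379 at 20 nM and 345 on vehicle, 16.7-fold higher, and IER5, an immediate early gene, had 1297 at 20 nM and 178 on vehicle, 15.01-fold higher. At the cell surface, the heparan sulfate proteoglycan SDC4 had 1452 at 20 nM and 194 on vehicle, 14.2-fold higher, and TNFRSF12A, the receptor of the cytokine TWEAK, had 2446 at 20 nM and 268 on vehicle, 13.9-fold higher. Of genes detected on the 20 nM array only, TCIM had 1172 at 20 nM and 138 on vehicle, at least 26.02-fold higher, and TICAM2, an adaptor of Toll-like receptor signalling, had 488 at 20 nM and 125 on vehicle, at least 9.69-fold higher.

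The largest downward folds on both arrays fell on genes of varied roles. CDCA7, a chromatin protein of dividing cells, had 162 at 20 nM and 791 on vehicle, 10.9-fold lower, the largest among the named genes detected on both arrays. MIX23 had 214 at 20 nM and 1232 on vehicle, 9.71-fold lower, and MSTO1, a protein of mitochondrial distribution that has a near-identical pseudogene, had 143 at 20 nM and 525 on vehicle, 9.58-fold lower. TIGD5 had 184 at 20 nM and 919 on vehicle, 9.29-fold lower, and EAF2, a partner of the elongation factor ELL, had 144 at 20 nM and 484 on vehicle, 8.41-fold lower. DBNL, an actin-binding adaptor, had 206 at 20 nM and 1043 on vehicle, 8.55-fold lower, and its other detected probe lay at -1.99 on the log2 scale. ZBTB42, a zinc finger factor, was 7.93-fold lower. Of genes detected on the vehicle array only, LIAT1 was at least 5.51-fold, the pseudogene FAM86C2P at least 5.58-fold and PSIP1, a chromatin-binding coactivator, at least 5.24-fold lower.

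The named genes were sorted into 67 families by their symbols and known roles, which took in 3731 genes, and 33 smaller groups were cut out of them. A gene could belong to more than 1 family. The lists were set with earlier results of these data known, so ranks among families describe the lists and test nothing. In 15 families the share of higher genes was at least 2 times the background, and in 4 families the share of lower genes was. The median log2 fold change was above 0.5 in 12 families, below -0.5 in 10 and between these in 45. In several families the lower share lay near the background while the higher share lay below it, among them mitochondrial ribosomal proteins (18.3% lower), tRNA synthetases (18.5%), chaperones (19.0%), central carbon enzymes (19.2%) and mitochondrial import genes (19.5%). In 7 families no member was at least 2-fold higher, and in 5 no member was at least 2-fold lower.

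**Figure D2:**
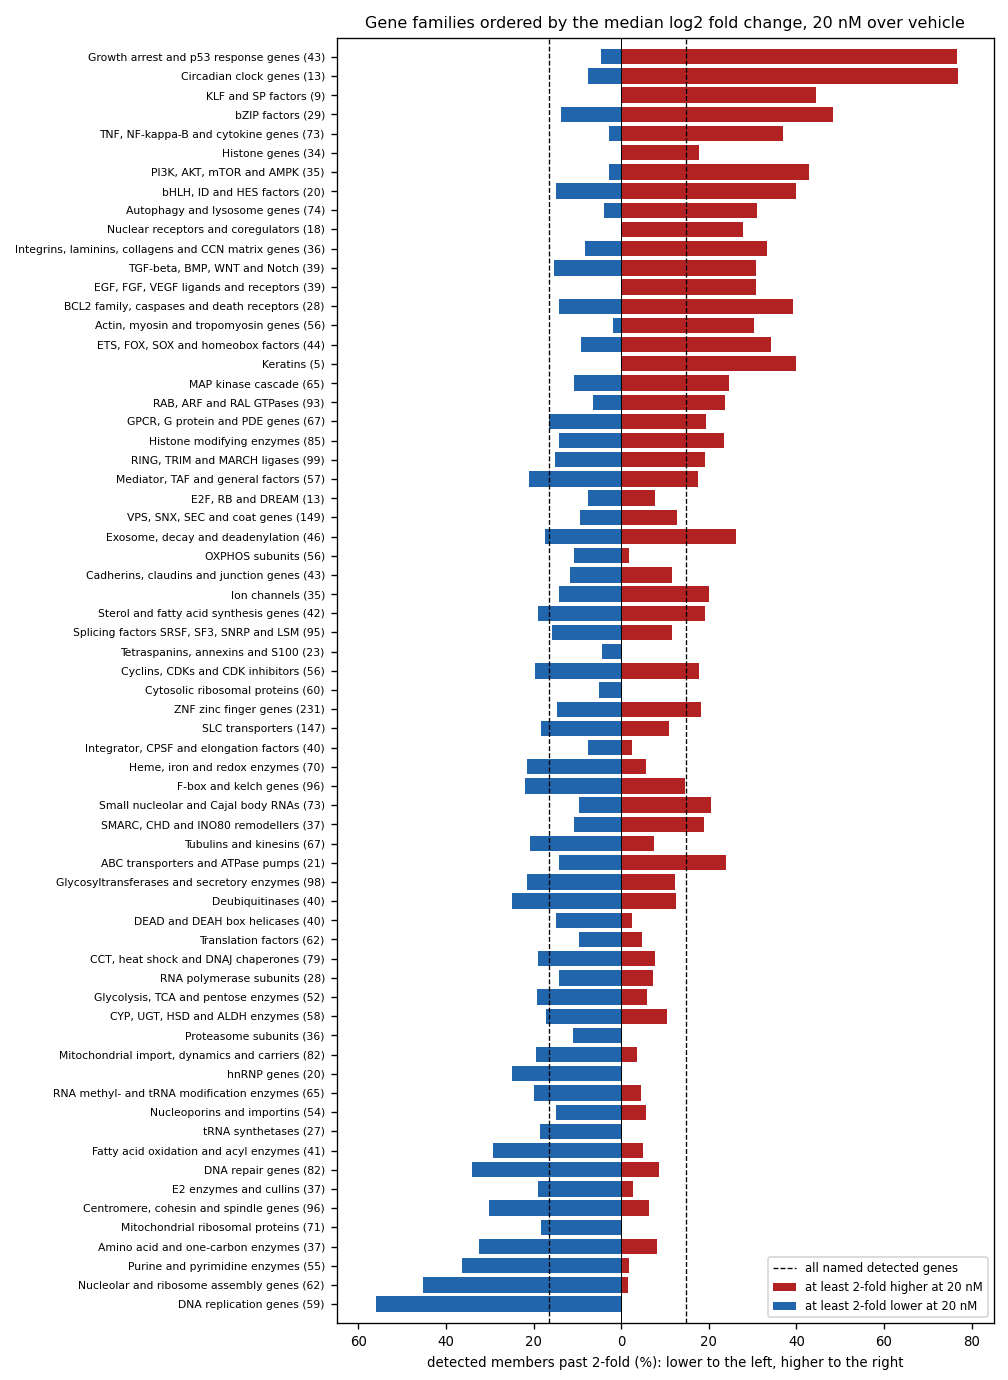
Share of the detected members of the gene families shown that were at least 2-fold higher (red, to the right) or at least 2-fold lower (blue, to the left) at 20 nM than on vehicle, in percent, with the number of detected members in parentheses. Dashed lines mark the shares over all named detected genes, 14.7% and 16.6%; growth arrest and circadian clock genes stand at the top and DNA replication genes at the bottom.

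Promoters of 4 genes are shown because these genes belong to families with large shares past 2-fold and because each window holds the motif for which its family is known. The windows run from 250 bases before to 50 bases after the gene start, in GRCh38.p14, from RefSeq, and capitals mark the motif. BHLHE40 (chr3:4979187-4979486, plus strand), a clock repressor, and MRTO4 (chr1:19251555-19251854, plus strand), a ribosome assembly factor, hold the E-box CACGTG, the site bound by the clock activators and by MYC. GINS3 (chr16:58392221-58392520, plus strand), a subunit of the replicative helicase, holds the E2F site TTTNNCGC in its reverse orientation. ACTA1 (chr1:229434045-229434344, minus strand), an actin, holds a CArG box, the site of serum response factor.
BHLHE40: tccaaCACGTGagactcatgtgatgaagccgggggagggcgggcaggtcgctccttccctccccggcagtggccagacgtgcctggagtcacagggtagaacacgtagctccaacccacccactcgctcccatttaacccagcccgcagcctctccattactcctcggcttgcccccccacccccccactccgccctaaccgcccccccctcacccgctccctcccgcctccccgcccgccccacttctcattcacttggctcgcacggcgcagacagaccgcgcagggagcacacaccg
MRTO4: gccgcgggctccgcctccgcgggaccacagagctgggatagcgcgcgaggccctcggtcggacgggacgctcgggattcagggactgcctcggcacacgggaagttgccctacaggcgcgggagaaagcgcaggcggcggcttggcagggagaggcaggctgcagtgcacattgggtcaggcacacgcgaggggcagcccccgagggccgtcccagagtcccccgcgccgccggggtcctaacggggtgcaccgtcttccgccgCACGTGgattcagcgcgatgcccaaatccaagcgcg
GINS3: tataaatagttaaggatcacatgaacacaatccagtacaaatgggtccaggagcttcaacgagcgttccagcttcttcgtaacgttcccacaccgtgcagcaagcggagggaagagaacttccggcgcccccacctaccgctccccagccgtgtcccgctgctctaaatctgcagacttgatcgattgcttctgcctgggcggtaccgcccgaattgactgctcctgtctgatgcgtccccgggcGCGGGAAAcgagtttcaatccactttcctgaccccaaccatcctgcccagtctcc
ACTA1: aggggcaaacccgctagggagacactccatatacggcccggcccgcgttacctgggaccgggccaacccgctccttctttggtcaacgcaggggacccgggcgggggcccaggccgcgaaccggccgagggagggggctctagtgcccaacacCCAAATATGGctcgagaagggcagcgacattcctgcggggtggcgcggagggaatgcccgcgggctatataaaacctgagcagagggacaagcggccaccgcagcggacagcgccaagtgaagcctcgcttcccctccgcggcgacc

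The 4 genes of these promoters were far apart in direction. BHLHE40 had a signal of 1179 at 20 nM and 261 on vehicle, 6.65-fold higher, and ACTA1 had 370.0 at 20 nM and 147 on vehicle, 5.79-fold higher. MRTO4 had 144 at 20 nM and 325 on vehicle, 5.00-fold lower, and GINS3 had 147 at 20 nM and 477 on vehicle, 7.70-fold lower. An E-box thus stood in the window of a gene that was higher and of a gene that was lower.

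The circadian clock is a transcriptional loop in which CLOCK and BMAL1 drive the PER and CRY repressors through E-boxes, and it had the largest share of higher genes of any family. Of 13 detected clock genes, 10 were at least 2-fold higher and 1 was lower, with a median log2 fold change of 1.71. TEF, an output factor of the PAR leucine zipper type, had signals of 402 at 20 nM and 135 on vehicle, at least 7.62-fold higher. The repressors were higher too, with CRY1 at 1599.7 at 20 nM and 365 on vehicle, 5.63-fold higher, and CRY2 at 558 at 20 nM and 197 on vehicle, 4.74-fold higher. BMAL1, the activator, had 251 at 20 nM and 139 on vehicle, 3.83-fold higher. Activator and repressors of the loop were thus higher together in this 1 sample, at 1 time of collection. TIMELESS, the member that was lower, had 584 at 20 nM and 1228 on vehicle, 2.36-fold lower, and in mammals it is best known for its part at replication forks.

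Growth arrest genes, which hold targets of p53 and brakes on cyclin-dependent kinases, had the highest median of any family, 1.81, with 33 of 43 members higher and 2 lower. GADD45B, a stress sensor that binds MAP kinase kinases, was detected at 20 nM only, at 1866 against 137 on vehicle. SERTAD1, a regulator of CDK4, had 1269 at 20 nM and 262 on vehicle, 7.14-fold higher. CDKN1A, the p21 inhibitor, reached 20842 at 20 nM, against 2905 on vehicle, and its 20 nM signal was 83.0% of the brightest probe on that array, with a fold of 7.27. The members that were lower were CDKN2A, the p16 locus, by 2.49-fold, and CDKN3, a phosphatase of mitotic cells, by 2.24-fold.

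Cyclins, cyclin-dependent kinases and their inhibitors lay on both sides, with 10 of 56 higher (17.9%) and 11 lower (19.6%). Both shares were near the background of 14.7% and 16.6%. CDKN1B, the p27 inhibitor, had 1987 at 20 nM and 443 on vehicle, 5.43-fold higher, and CCNG2, a cyclin of resting cells, had 1177 at 20 nM and 352 on vehicle, 4.25-fold higher. On the other side, CCNA2, the cyclin of S and G2 phase, had 324 at 20 nM and 999 on vehicle, 3.97-fold lower. CDC7, the kinase that fires origins, was 2.88-fold lower and CDC20, the activator of the anaphase complex, 2.71-fold lower. Of the members named here, the higher were a kinase inhibitor and a cyclin of resting cells, and the lower act in S phase and mitosis. They were picked from the largest changes and most members past 2-fold are not named here, so their roles do not describe the family. In the E2F, RB and DREAM family only 1 of 13 members was higher, LIN52 by 2.57-fold, and 1 lower, RBL2 by 2.05-fold.

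The cell death family had 11 of 28 members higher (39.3%) and 4 lower (14.3%), and both killers and protectors were among the higher genes. The background shares were 14.7% and 16.6%. The median log2 fold change was 0.50 over all members, but 0.07 over the 25 detected on both arrays. PMAIP1, the NOXA protein that neutralises MCL1, had 1281 at 20 nM and 283 on vehicle, 6.40-fold higher, while MCL1, its protective partner, had 1598 at 20 nM and 395 on vehicle, 5.04-fold higher. The decoy death receptor TNFRSF10D had 423 at 20 nM and 139 on vehicle, at least 8.08-fold higher, and the death receptor FAS was at least 2.56-fold higher. The lower members included an executioner caspase, an initiator caspase and a receptor adaptor, with CASP6 3.08-fold, CASP2 2.17-fold and FADD 2.10-fold lower.

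Among transcription factor families of the stress response, members past 2-fold lay mostly on the higher side. The leucine zipper factors had 14 of 29 members higher and 4 lower, and their median log2 fold change was 0.85. CREBRF, which restrains the CREB3 factor of the unfolded protein response, was 1225 at 20 nM and 123 on vehicle. FOS, an immediate early gene, had 671 at 20 nM and 118 on vehicle, at least 14.0-fold higher. JUNB, a partner of FOS, had 429 at 20 nM and 157 on vehicle, 5.76-fold higher. CREB3L4, a zipper factor of the secretory pathway that prostate cells express, went the other way with 141 at 20 nM and 422 on vehicle, 7.58-fold lower. NFE2L3 was 3.37-fold lower and CEBPA 2.39-fold lower.

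All 9 detected KLF and SP factors lay above 0 and 4 passed 2-fold. KLF4, an arrest-linked factor of epithelia, had 506 at 20 nM and 139 on vehicle, at least 10.0-fold higher, and KLF6 had 968 at 20 nM and 254 on vehicle, 5.55-fold higher. Helix-loop-helix factors had 8 of 20 higher and 3 lower. Within them MYC, which drives growth genes, had 789.9 at 20 nM and 2524 on vehicle, 3.54-fold lower, and MXD1, the antagonist that competes for its partner MAX, had 285 at 20 nM and 145 on vehicle, 4.07-fold higher. The antagonists were not uniform, since MXI1 was at least 1.37-fold lower and MXD3 at least 1.68-fold lower. TFE3, a lysosomal regulator of the same class, was 2.71-fold higher.

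The ETS, forkhead, SOX and homeobox factors had 15 of 44 higher and 4 lower, and the epithelial ETS factors split. ELF3 had signals of 2061 at 20 nM and 246 on vehicle, whereas SPDEF, the ETS factor of luminal prostate, had 333 at 20 nM and 1186 on vehicle, 4.57-fold lower. ETV6 was 4.86-fold higher and SOX8 4.57-fold lower. FOXD4 and FOXD4L1, near-identical copies whose probes may share transcripts, were 3.66-fold and 4.39-fold higher. Nuclear receptors and coregulators had 5 of 18 higher and 0 lower, led by RARA, a retinoic acid receptor, with 719.8 at 20 nM and 216 on vehicle, 5.35-fold higher. The coactivator NCOA6 was 3.13-fold higher and the corepressor NRIP1 3.07-fold higher.

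The largest family, the ZNF zinc finger genes, sat near the background, with 42 of 231 higher (18.2%) and 34 lower (14.7%). Its extremes were ZNF341, with 439.8 at 20 nM and 147 on vehicle, 7.18-fold higher, and ZNF239, with 169 at 20 nM and 602 on vehicle, 6.99-fold lower. RFX1, a winged-helix factor outside these families, was among the 15 genes with the largest upward folds of those detected on both arrays, with 780.1 at 20 nM and 162 on vehicle, 10.6-fold higher.

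Receptor signalling genes past 2-fold lay mostly on the higher side. TNF, NF-kappa-B and cytokine genes had 27 of 73 members higher and 2 lower. CXCL8, the neutrophil chemokine, had 1035 at 20 nM and 207 on vehicle, 8.61-fold higher, and TNF itself had 223 at 20 nM and 114 on vehicle, at least 3.12-fold higher. BCL3, an atypical inhibitor that can act as a coactivator, had 534 at 20 nM and 186 on vehicle, 5.06-fold higher, and NFKBIA, the classical inhibitor, had 10352 at 20 nM and 3621 on vehicle, 2.63-fold higher. Of the NF-kappa-B subunits and inhibitors, 5 of 12 were higher and 0 lower, and 11 of the 12 lay above 0. The family's lower members were the receptor TNFRSF19, by 2.48-fold, and the interferon receptor IFNAR1, by 2.30-fold.

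In the MAP kinase cascade 16 of 65 members were higher and 7 lower, and feedback inhibitors led the higher side. DUSP1, a phosphatase that switches MAP kinases off, had the largest value of the family, with 5906 at 20 nM and 529 on vehicle, 12.7-fold higher. DUSP5 and DUSP8, of the same class, had 1019 at 20 nM and 191 on vehicle, 10.00-fold higher for DUSP5, and 644 at 20 nM and 159 on vehicle, 9.12-fold higher for DUSP8. ERRFI1, an inhibitor of the EGF receptor, had 4466 at 20 nM and 619 on vehicle, 7.87-fold higher. The dual-specificity phosphatases were not all higher, since 6 of 13 passed 2-fold upward and 3 downward, DUSP2 by 2.62-fold, DUSP23 by 2.44-fold and DUSP22 by 2.09-fold. MAPKAPK3, a kinase downstream of p38, had 698 at 20 nM and 2444 on vehicle, 3.92-fold lower.

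Growth factors and their receptors had 12 of 39 members higher (30.8%) and 0 lower. Their median log2 fold change was 0.50 over all members and 0.20 over the 30 detected on both arrays. HBEGF, a ligand of the EGF receptor, had 596 at 20 nM and 147 on vehicle, 10.4-fold higher, and EFNA1, an ephrin ligand, had 9966 at 20 nM and 1345 on vehicle, 7.21-fold higher. FGF13, an intracellular member of the FGF family that modulates sodium channels, had 416 at 20 nM and 149 on vehicle, 6.48-fold higher. In the TGF-beta, BMP, WNT and Notch family 12 of 39 were higher and 6 lower. GDF15, a stress cytokine, reached 16352 at 20 nM, against 2150.2 on vehicle. NOTCH1 was 3.76-fold higher and its ligand JAG1 3.01-fold higher, while the ligands DLL3 and JAG2 were 2.46-fold and 2.13-fold lower. WNT receptors went both ways, with FZD7 at least 2.33-fold higher and FZD9 3.35-fold lower.

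G protein signalling genes lay nearer the background, with 13 of 67 higher and 11 lower. The vasoactive peptides stood out. EDN1, endothelin, was 818 at 20 nM and 127 on vehicle, and EDN2 had 236 at 20 nM and 126 on vehicle, at least 3.44-fold higher. ADM, adrenomedullin, was 1306 at 20 nM and 212 on vehicle. ADCY9, an adenylyl cyclase, was 5.69-fold higher and PDE9A, a cyclic GMP phosphodiesterase, had 276 at 20 nM and 907 on vehicle, 4.51-fold lower.

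Several genes that restrain growth signalling at the lysosome were higher. In the PI3K, AKT, mTOR and AMPK family 15 of 35 members were higher and 1 was lower. TSC1, which forms the complex that turns mTORC1 off, had 1083 at 20 nM and 269 on vehicle, 5.74-fold higher. SESN2, a leucine sensor that blocks the same kinase, had 289 at 20 nM and 131 on vehicle, at least 4.75-fold higher, and SESN1 was 3.85-fold higher. PRKAB1, a regulatory subunit of AMPK, had 458 at 20 nM and 163 on vehicle, 5.67-fold higher, and TRIB1, a pseudokinase scaffold, had 2064 at 20 nM and 347 on vehicle, 7.88-fold higher. The single lower member was the kinase SGK3, by 3.46-fold.

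Autophagy and lysosome genes had 23 of 74 members higher (31.1%) and 3 lower (4.05%). The higher members lay in the proteins that build and load the autophagosome and in nutrient sensing, and less in the lysosomal pump and proteases. GABARAPL1, an ATG8 protein that coats the autophagosome, had 2656 at 20 nM and 482 on vehicle, 6.68-fold higher, and MAP1LC3B, the LC3 protein, had 941 at 20 nM and 276 on vehicle, 4.72-fold higher. SQSTM1, the p62 cargo receptor, reached 23104 at 20 nM, against 8275 on vehicle, and its 20 nM signal was 92.0% of the brightest probe on that array. All 7 detected ATG8 proteins and cargo receptors lay above 0, and 4 passed 2-fold.

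FLCN, folliculin, which relays amino acid supply to mTORC1 through the RAG GTPases, had 283 at 20 nM and 131 on vehicle, at least 4.61-fold higher. Its partner FNIP1 was 3.99-fold higher, and RRAGC, a RAG GTPase, had 845 at 20 nM and 263 on vehicle, 4.51-fold higher. Of the folliculin and RAG nutrient sensing genes 8 of 13 were higher and 0 lower, and the median was 1.90. By contrast 2 of 14 subunits of the acidifying V-ATPase passed 2-fold upward, ATP6V0E1 by 2.17-fold and ATP6V1B2 by 2.13-fold, and 1 downward, ATP6V0A2 by 2.21-fold. Of 11 cathepsins, the lysosomal proteases, CTSK was at least 5.57-fold higher and CTSL 2.85-fold lower.

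RAB, ARF and RAL GTPases and their regulators, which steer vesicles, had 22 of 93 members higher and 6 lower. TBC1D20, a GTPase-activating protein, had 694 at 20 nM and 213 on vehicle, 5.31-fold higher, RAB32 had 1222 at 20 nM and 376 on vehicle, 4.07-fold higher, and RAB9A, a GTPase of late endosomes, had 4536 at 20 nM and 1187 on vehicle, 3.83-fold higher. The TBC1D proteins had 9 of 20 higher and 3 lower, but 6 of the 20 were detected on 1 array only, and over the 14 detected on both arrays the median was -0.10. Coats, tethers and fusion proteins lay below the background in both directions, with 19 of 149 higher and 14 lower. STX3 and STX19, syntaxins of the plasma membrane, were 3.60-fold and 4.97-fold higher, and STX2 was at least 4.08-fold lower.

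Actin, myosin and tropomyosin genes had 17 of 56 members higher and 1 lower. FHL2, a coactivator that shuttles between focal adhesions and the nucleus, had 527 at 20 nM and 162 on vehicle, 6.83-fold higher. ZYX, zyxin of focal adhesions, had 1389 at 20 nM and 405 on vehicle, 4.20-fold higher, and MYL12A, a myosin regulatory light chain with a near-identical copy, had 11673 at 20 nM and 2674 on vehicle, 4.17-fold higher. The single lower member was MYO5C, a myosin of epithelial secretion, by 3.62-fold. Matrix genes and their receptors had 12 of 36 higher and 3 lower, and the leading ones were the matricellular proteins. CCN2 was 3337 at 20 nM and 139 on vehicle, and CCN1 was 4742 at 20 nM and 188 on vehicle. SERPINE2, a protease inhibitor, was 3.04-fold higher. MMP10 and MMP12, matrix proteases detected at 20 nM only, had signals of 166 and 153 there, not far above the estimated background of 115.8 units.

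Cadherins, claudins and junction genes had 5 of 43 in each direction, with NECTIN2 3.90-fold higher and the protocadherin PCDHB2 3.73-fold lower. Of 23 tetraspanins, annexins and S100 proteins, 0 were higher and 1 lower, ANXA11 by 2.43-fold. Both families lay below the background shares. Of the 5 keratins 2 were higher (40%) and 0 lower, where KRT80 was 732 at 20 nM and 151 on vehicle and KRT10 was 2.07-fold higher.

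**Figure D3:**
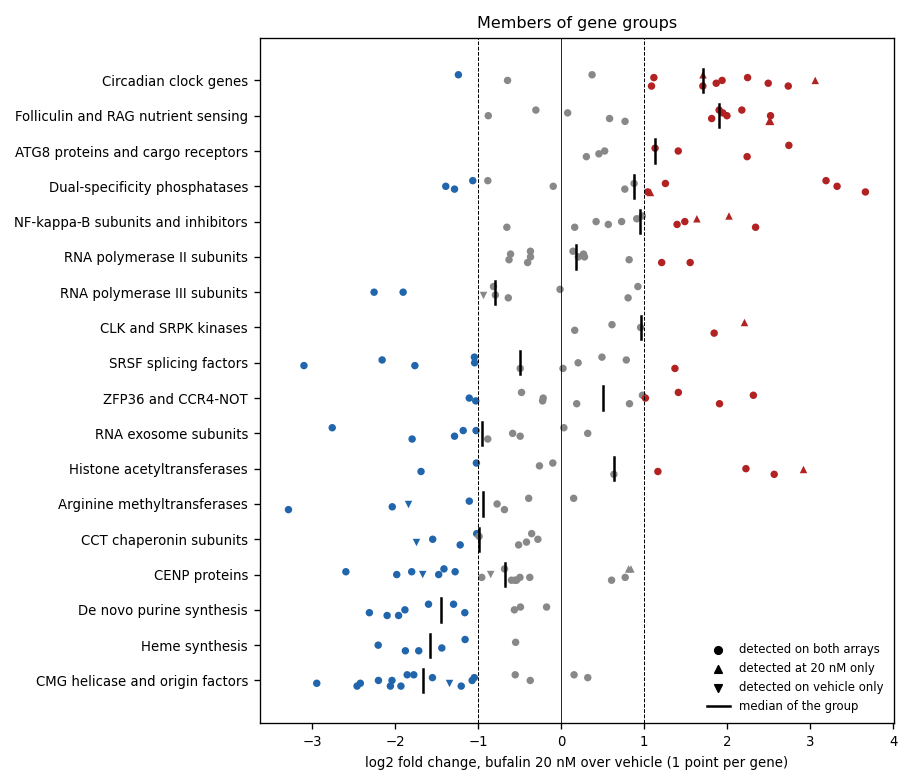
Log2 fold change of bufalin 20 nM over vehicle (x axis) for each detected gene of 18 groups, with 1 point per gene and a bar at the group's median. Red and blue mark genes past 2-fold, triangles genes detected on 1 array only; clock, nutrient sensing and ATG8 genes lie to the right, and purine synthesis, heme synthesis and helicase genes to the left.

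Histone modifying enzymes lay on both sides. Of 85 detected, 20 were higher (23.5%) and 12 lower (14.1%), against backgrounds of 14.7% and 16.6%. The median log2 fold change was 0.33 over all members, but 0.07 over the 70 detected on both arrays. Of 9 acetyltransferases 4 were higher and 2 lower. The paralogous acetyltransferases of the p300 class were higher, EP300 with 291 at 20 nM and 121 on vehicle, at least 4.79-fold higher, and CREBBP with 1084 at 20 nM and 264 on vehicle, 5.91-fold higher. KAT6A was 4.67-fold higher as well, while KAT2A, an acetyltransferase of the SAGA complex, had 444 at 20 nM and 1215 on vehicle, 3.22-fold lower. Of 8 arginine methyltransferases 0 were higher and 4 lower, and PRMT6 had 247 at 20 nM and 1561 on vehicle, with both of its detected probes at least 4-fold lower. PRMT3, which methylates a ribosomal protein, had 323 at 20 nM and 1028 on vehicle, 4.10-fold lower, PRMT7 was at least 2.43-fold lower and PRMT5 2.15-fold lower. Of 14 lysine demethylases 4 were higher and 2 lower. KDM6B had 215 at 20 nM and 119.7 on vehicle, at least 2.94-fold higher, and JMJD1C had 519.9 at 20 nM and 205 on vehicle, 4.05-fold higher, whereas KDM1A was 2.50-fold lower.

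Chromatin remodellers had 7 of 37 higher (18.9%) and 4 lower (10.8%), against backgrounds of 14.7% and 16.6%. The chromodomain helicases CHD2 and CHD9 were higher, CHD2 with 394 at 20 nM and 141 on vehicle, 7.12-fold higher, and CHD9 with 859 at 20 nM and 246 on vehicle, 5.12-fold higher. RUVBL1, an ATPase of several assembly complexes, had 366 at 20 nM and 1095 on vehicle, 3.64-fold lower. Histone genes had 6 of 34 higher (17.6%, near the background of 14.7%) and 0 lower, against a background of 16.6%. H2BC5 had 1305 at 20 nM and 287 on vehicle, 6.38-fold higher, and H2BC21 had 2283 at 20 nM and 686 on vehicle, 3.63-fold higher. Histone genes have many near-identical copies, and probes of one may bind transcripts of another.

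Subunits of the 3 nuclear RNA polymerases were grouped by gene symbol, within a family that had 2 of 28 members higher and 4 lower. A subunit shared between polymerases was counted only under its symbol, so the groups are not whole polymerases. Of 12 subunits with POLR2 symbols 2 were higher and 0 lower. The catalytic subunit POLR2A had 1075 at 20 nM and 429 on vehicle, 2.93-fold higher. POLR2K, which all 3 polymerases share, had 227 at 20 nM and 156 on vehicle, 2.31-fold higher. Of 9 subunits with POLR3 symbols 0 were higher and 2 lower. POLR3G had 152 at 20 nM and 360.5 on vehicle, 4.77-fold lower, and POLR3B had 180.3 at 20 nM and 420.4 on vehicle, 3.74-fold lower. Of 7 subunits with POLR1 symbols 2 were lower, POLR1E by 2.59-fold and POLR1G by at least 1.29-fold. The counts are small, and most subunits of each group did not pass 2-fold. GTF3A, the factor that places RNA polymerase III on 5S genes, had 1327 at 20 nM and 3249 on vehicle, 2.71-fold lower, while GTF2B, a general factor of RNA polymerase II, had 1104 at 20 nM and 469 on vehicle, 2.69-fold higher.

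The family of Mediator, TAF and general factors as a whole had 10 of 57 higher (17.5%) and 12 lower (21.1%). Both shares were near the background of 14.7% and 16.6%. TAF5 was 4.49-fold higher and MED7 3.51-fold lower. Integrator, cleavage and elongation factors mostly stayed within 2-fold, with 1 of 40 higher, AFF4 by 2.64-fold, and 3 lower, led by the cleavage nuclease CPSF3 by 2.69-fold. Among small nuclear and nucleolar RNAs 15 of 73 were higher and 7 lower. RN7SK, the RNA that holds the elongation kinase inactive, had 767 at 20 nM and 250.3 on vehicle, 4.39-fold higher, and RPPH1, the RNA of RNase P, had 278 at 20 nM and 131 on vehicle, at least 4.49-fold higher. Both are transcribed by RNA polymerase III. These RNAs have many copies, so their probes are not specific to 1 locus.

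Among splicing factors, SR protein genes past 2-fold lay mostly on the lower side. Of 11 SRSF genes 5 were lower and 1 was higher, but 5 of the 11 lay above 0 and 6 below. SRSF7 was 219 at 20 nM and 1146 on vehicle, SRSF3 had 268 at 20 nM and 862 on vehicle, 4.46-fold lower, and SRSF2 had 1332 at 20 nM and 4029.7 on vehicle, 3.39-fold lower. SRSF4 was the higher one, with 2852 at 20 nM and 1137 on vehicle, 2.58-fold higher. Of the 5 detected kinases that phosphorylate SR proteins, 2 were higher. CLK1 had 1179.7 at 20 nM and 402 on vehicle, 3.58-fold higher, and CLK4 had 241 at 20 nM and 129 on vehicle, at least 3.58-fold higher. All 5 detected CLK and SRPK genes lay above 0. The whole splicing family stood near the background, with 11 of 95 higher and 15 lower.

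The hnRNP genes had 0 of 20 higher and 5 lower, with HNRNPA3 at 328 at 20 nM and 736 on vehicle, 2.74-fold lower, and HNRNPA1, which has many processed copies, 3.31-fold lower. Their median of -0.45 kept its sign in 10 of 11 alternatives of processing, and its highest value among them was 0.01. RNA helicases of the DEAD and DEAH box had 1 of 40 higher, DDX3X by 2.86-fold, and 6 lower, led by DDX46, a splicing helicase, by 3.32-fold, and DHX37, a ribosome assembly helicase, by 3.17-fold.

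RNA decay genes lay on both sides. The exosome, which trims RNA from the 3 prime end, had 5 of 10 subunits lower and 0 higher. EXOSC2, one of its cap subunits, had 157 at 20 nM and 503 on vehicle, 6.77-fold lower, and EXOSC5 had 142 at 20 nM and 253 on vehicle, 3.47-fold lower. ZFP36 proteins bind AU-rich elements and call in the CCR4-NOT deadenylase. ZFP36 had 945 at 20 nM and 268 on vehicle, 4.97-fold higher, and ZFP36L1 had 1383 at 20 nM and 437 on vehicle, 3.75-fold higher. Of 12 detected ZFP36 and CCR4-NOT genes 4 were higher and 2 lower, and 5 lay below 0. TENT5C, a poly(A) polymerase, had 346 at 20 nM and 142 on vehicle, 5.88-fold higher. The decay family as a whole had 12 of 46 higher and 8 lower.

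Ribosome assembly genes past 2-fold lay on the lower side, with 1 exception. Of 62 nucleolar and ribosome assembly genes 28 were at least 2-fold lower (45.2%) and 1 was higher, and 55 of the 62 lay below 0. RRP36, an early assembly factor, had 348 at 20 nM and 1725 on vehicle, 6.49-fold lower, RRP7A had 187 at 20 nM and 671 on vehicle, 6.30-fold lower, and BOP1, of the complex that matures the large subunit, had 407 at 20 nM and 1582 on vehicle, 4.78-fold lower. The exception was RRN3, which recruits RNA polymerase I, with 929 at 20 nM and 449 on vehicle, 2.35-fold higher. The cytosolic ribosomal proteins mostly stayed within 2-fold of vehicle, with 0 of 60 higher and 3 lower. RPL29 had 580.3 at 20 nM and 2712 on vehicle, 5.49-fold lower, RPL22L1 was 2.88-fold lower and RPL13 2.33-fold lower.

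Mitochondrial ribosomal proteins had 0 of 71 higher and 13 lower, and 58 of the 71 lay below 0, with a median of -0.61. MRPS26 had 415 at 20 nM and 1710.3 on vehicle, 5.10-fold lower, and MRPL17 had 732 at 20 nM and 3028 on vehicle, 4.81-fold lower. In both kinds of ribosome the median member lay within 2-fold of vehicle, and for the cytosolic proteins the median was -0.10.

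Translation factors had 3 of 62 higher and 6 lower. EEF2K, the kinase that brakes elongation, had 137 at 20 nM and 392 on vehicle, at least 7.06-fold lower, and EEF2KMT, a methyltransferase of the same elongation factor, had 174 at 20 nM and 406 on vehicle, 3.88-fold lower. On the higher side stood EIF2AK3, the PERK kinase of the endoplasmic reticulum, with 303 at 20 nM and 146 on vehicle, 4.43-fold higher, and EIF1 and its close copy EIF1B, by 2.39-fold and 2.96-fold. EIF5 was 2.68-fold lower on its brightest probe, but its other detected probe lay at 0.74 on the log2 scale. Of 27 tRNA synthetases 0 were higher and 5 lower, with QARS1, which charges glutamine, at 1557 at 20 nM and 4505 on vehicle, 3.25-fold lower, and LARS1, which charges leucine, at 402 at 20 nM and 992 on vehicle, 2.92-fold lower.

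RNA-modifying enzymes had 3 of 65 higher and 13 lower. METTL1 and WDR4 form 1 enzyme that places 7-methylguanosine in tRNAs, and both were lower. METTL1 was 191 at 20 nM and 891 on vehicle, and WDR4 had 188 at 20 nM and 623 on vehicle, 5.66-fold lower. ALKBH2, a DNA demethylase of the same symbol class, had 179 at 20 nM and 514 on vehicle, 4.96-fold lower, and ALKBH1 went the other way, with 462 at 20 nM and 208 on vehicle, 3.44-fold higher.

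Nuclear transport genes had 3 of 54 higher (5.56%) and 8 lower (14.8%), the lower share being near the background of 16.6%. RAN, the GTPase that gives transport its direction, had 3095 at 20 nM and 7770.4 on vehicle, 2.77-fold lower, and IPO11, an importin, had 338 at 20 nM and 716 on vehicle, 2.55-fold lower. Of 22 importins and exportins 0 were higher and 6 lower, while 2 of 19 nucleoporins were higher, NUP58 by at least 2.31-fold and NUP153 by 2.39-fold, and 1 was lower, NUP35 by 2.27-fold.

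DNA replication genes had the largest share of lower members, 33 of 59 (55.9%), with 0 higher and a median of -1.07. Of the helicase that unwinds DNA and the factors that load it at origins, 14 of 18 genes were lower and the median was -1.66. CDC45, which joins MCM and GINS proteins into the active helicase, had 299.5 at 20 nM and 1213 on vehicle, 5.50-fold lower. MCM4 had 234 at 20 nM and 829 on vehicle, 5.35-fold lower, CDT1, the licensing factor, had 200.0 at 20 nM and 579 on vehicle, 4.60-fold lower, and PRIM1, the primase, had the lowest value of the family, with 158 at 20 nM and 677 on vehicle, 9.54-fold lower. UHRF1, which carries DNA methylation through replication, had 247 at 20 nM and 805 on vehicle, 4.71-fold lower.

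DNA repair genes were lower more often than higher. Of 82 members 28 were lower and 7 higher. Among the lower members were genes of recombination and crosslink repair, FANCG with 188 at 20 nM and 666 on vehicle, 6.14-fold lower, and BRCA1 with 130.0 at 20 nM and 251 on vehicle, at least 3.68-fold lower. PRKDC, the kinase of end joining, had 166 at 20 nM and 378 on vehicle, 3.97-fold lower. On the higher side, DDB2 and XPC, the damage sensors of nucleotide excision repair, had 471 at 20 nM and 142 on vehicle, 8.79-fold higher for DDB2, and 1898 at 20 nM and 489 on vehicle, 4.53-fold higher for XPC. POLH, the polymerase that copies past ultraviolet lesions, was at least 2.81-fold higher. DDB2, XPC and POLH are known targets of p53.

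Chromosome segregation genes had 29 of 96 members lower and 6 higher. CENPS, a centromere protein, had 226 at 20 nM and 881 on vehicle, 6.04-fold lower, NCAPG, a condensin subunit, had 235 at 20 nM and 720.4 on vehicle, 4.51-fold lower, and HAUS1, of the spindle augmin complex, had 210.0 at 20 nM and 554 on vehicle, 3.98-fold lower. The higher members were largely centrosomal proteins of the CEP class, led by CEP85L, with 471 at 20 nM and 127 on vehicle, at least 9.28-fold higher. CEP20 was 3.37-fold higher and CEP350 3.14-fold higher. Of 18 kinesins 0 were higher and 6 lower, with the mitotic kinesin KIF20A at 226 at 20 nM and 658 on vehicle, 4.34-fold lower. The wider family of tubulins and kinesins had 5 of 67 higher, led by the microtubule tip protein CLIP2 by at least 2.22-fold, and 14 lower.

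**Figure D4:**
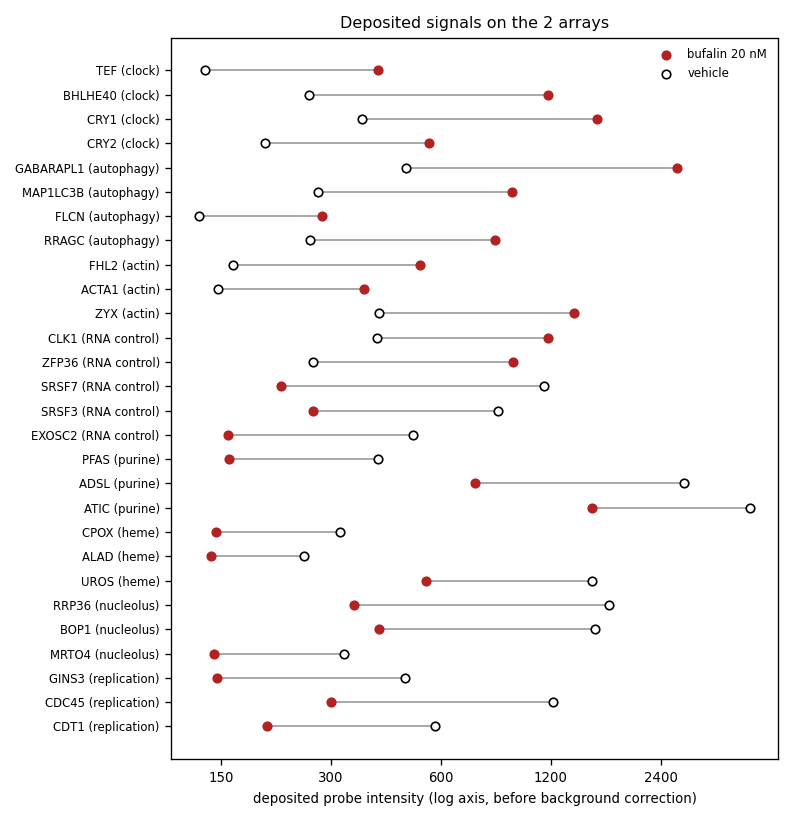
Deposited probe intensity (x axis, log scale, before background correction) at 20 nM bufalin (filled red points) and on vehicle (open points) for 28 genes of 8 groups, 1 array each. The clock, autophagy and actin genes have the red point to the right, and the purine, heme, nucleolus and replication genes have it to the left.

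Protein folding genes had 15 of 79 lower (19.0%, near the background of 16.6%) and 6 higher (7.59%). The chaperonin CCT, which folds actin and tubulin, had 4 of 9 subunits lower and all of them below 0. CCT3 had 891 at 20 nM and 2386 on vehicle, 2.92-fold lower, and CCT2 had 1593 at 20 nM and 3361 on vehicle, 2.32-fold lower. HSPA8, the constitutive chaperone of the HSP70 class, had 3382 at 20 nM and 10194 on vehicle, 3.31-fold lower, and FKBP5, a cochaperone of steroid receptors, had 498 at 20 nM and 1505 on vehicle, 3.55-fold lower. HSPB8, a small heat shock protein that works with autophagy, had 576 at 20 nM and 170.3 on vehicle, 6.71-fold higher, and DNAJB4, a cochaperone, had 375 at 20 nM and 159.9 on vehicle, 4.64-fold higher. Of 32 DNAJ genes 3 were higher and 5 lower.

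Protein degradation begins with ubiquitin transfer and ends at the proteasome. Proteasome subunits and their assembly factors had 0 of 36 higher and 4 lower, with the assembly factor PSMG1 at 684 at 20 nM and 1716 on vehicle, 2.83-fold lower. E2 enzymes, cullins and ubiquitin genes had 1 of 37 higher, UBE2H by 2.94-fold, and 7 lower. UBB, a polyubiquitin gene, was 4688 at 20 nM and 15856 on vehicle, 3.65-fold lower, and both of its probes were lower by more than 2-fold. Deubiquitinases had 5 of 40 higher, with ZRANB1 at 1044 at 20 nM and 323 on vehicle, 4.15-fold higher, and 10 lower, with OTUD6B at 212 at 20 nM and 496 on vehicle, 3.38-fold lower.

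RING-type ligases had 19 of 99 higher (19.2%) and 15 lower (15.2%), near the background of 14.7% and 16.6%. RNF103, of the endoplasmic reticulum, had 3639.7 at 20 nM and 669 on vehicle, 5.88-fold higher, and RNF19B had 406 at 20 nM and 149 on vehicle, 6.21-fold higher. All 5 detected members of a cluster of recent primate TRIM copies were lower, TRIM51 with 162 at 20 nM and 769 on vehicle, and TRIM48 with 129.7 at 20 nM and 306 on vehicle, at least 4.98-fold lower. TRIM49C, TRIM49D1 and TRIM49D2 were at least 4.14-fold, at least 5.66-fold and at least 3.40-fold lower. These genes are near-identical, and their probes may read the same transcripts, so they do not count as 5 separate observations.

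Substrate adaptors of ubiquitin ligases had 14 of 96 higher (14.6%) and 21 lower (21.9%), with large values on both sides. The background shares were 14.7% and 16.6%. KLHL24 had 855 at 20 nM and 184 on vehicle, 8.88-fold higher, and KLHL28 had 1856 at 20 nM and 300.5 on vehicle, 8.57-fold higher. FBXW7, the adaptor that marks MYC and cyclin E for degradation, had 931 at 20 nM and 219 on vehicle, 6.91-fold higher, and FBXO32, the atrogin adaptor of muscle wasting, had 412 at 20 nM and 156 on vehicle, 5.65-fold higher. On the lower side KBTBD11 had 133 at 20 nM and 348 on vehicle, at least 6.0-fold lower, and FBXO5, the inhibitor of the anaphase complex, had 271 at 20 nM and 712 on vehicle, 3.54-fold lower. FBXO4 was at least 3.55-fold lower on its brightest probe, but the least changed of its 3 detected probes lay at 0.89 on the log2 scale.

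Nucleotide synthesis genes past 2-fold lay on the lower side, with 1 exception. Of 55 purine and pyrimidine enzymes 20 were lower and 1 was higher, AK6 by 2.56-fold. In de novo purine synthesis, the route that builds the purine ring, 7 of 10 enzymes were lower and all 10 lay below 0. PFAS, an amidotransferase of the pathway, had 158 at 20 nM and 404 on vehicle, 4.96-fold lower, ADSL, which acts at 2 of its steps, had 743 at 20 nM and 2775 on vehicle, 4.28-fold lower, and ATIC, which closes the ring, had 1558 at 20 nM and 4206 on vehicle, 3.03-fold lower. IMPDH2, the entry to guanine nucleotides, had 1369.7 at 20 nM and 4493 on vehicle, 3.69-fold lower. IMPDH1 had 361 at 20 nM and 1142 on vehicle, 3.89-fold lower on its brightest probe, but another of its 3 detected probes was above 2-fold in the other direction, at 1.12 on the log2 scale.

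Amino acid and one-carbon enzymes had 12 of 37 members lower and 3 higher. SHMT1, which feeds one-carbon units from serine, had 349.6 at 20 nM and 1012 on vehicle, 3.58-fold lower, and MAT2A, which makes S-adenosylmethionine, had 915 at 20 nM and 2272 on vehicle, 2.72-fold lower. The polyamine enzymes were the higher ones, SAT1, which acetylates polyamines for export, with 12797 at 20 nM and 3027 on vehicle, 3.85-fold higher, and AMD1, which serves their synthesis, with 8858 at 20 nM and 3155 on vehicle, 2.60-fold higher. One enzyme of breakdown and one of synthesis were thus higher side by side.

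Heme, iron and redox enzymes had 15 of 70 lower and 4 higher, and synthesis and breakdown of heme stood apart. Of 6 detected heme synthesis enzymes 5 were at least 2-fold lower and all 6 lay below 0. CPOX had 146 at 20 nM and 319 on vehicle, 4.61-fold lower, ALAD had 140.5 at 20 nM and 253 on vehicle, 3.67-fold lower, and UROS had 547 at 20 nM and 1557 on vehicle, 3.29-fold lower, each an enzyme of a separate step. PPOX was 2.71-fold lower and FECH, which inserts the iron, 2.23-fold lower. HMOX1, which opens the heme ring, was 2520.2 at 20 nM and 177 on vehicle. TXNIP, which binds thioredoxin and curbs glucose uptake, had 7679.6 at 20 nM and 1399 on vehicle, 5.37-fold higher, and AKR1C3, an aldo-keto reductase of steroid metabolism, had 997 at 20 nM and 296 on vehicle, 4.54-fold higher.

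Central carbon metabolism had 10 of 52 enzymes lower (19.2%, near the background of 16.6%) and 3 higher (5.77%). IDH1, the cytosolic isocitrate dehydrogenase, had 1087 at 20 nM and 3830.2 on vehicle, 4.02-fold lower, and ACLY, which makes acetyl-CoA for lipid synthesis, had 847 at 20 nM and 2818 on vehicle, 3.75-fold lower. Fatty acid oxidation and peroxisome genes had 12 of 41 lower and 2 higher. ACOX2, an oxidase of branched chains in peroxisomes, had 125 at 20 nM and 278 on vehicle, at least 4.30-fold lower, and ACOT11, a thioesterase, had 124 at 20 nM and 273 on vehicle, at least 4.21-fold lower, while ACOX3 had 565 at 20 nM and 249.7 on vehicle, 3.12-fold higher.

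Sterol and fatty acid synthesis genes were split evenly, with 8 of 42 higher and 8 lower (19.0% each), near the background of 14.7% and 16.6%. INSIG1, which holds the sterol sensor back, had 3122 at 20 nM and 753 on vehicle, 4.43-fold higher, and SQLE, an epoxidase of sterol synthesis, had 218 at 20 nM and 632 on vehicle, 4.39-fold lower. SREBF1 was 2.78-fold higher and the elongase ELOVL6 2.89-fold lower.

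Respiratory chain subunits had 1 of 56 higher and 6 lower (10.7%), both under the background, and 38 of the 56 lay above 0, with a median of 0.14. NDUFB10, a subunit of complex I, had 2527 at 20 nM and 7056 on vehicle, 3.09-fold lower, and NDUFB7 was 2.31-fold lower. UQCR10, the single higher subunit by 2.17-fold, had 3 detected probes, of which the lowest lay at -0.89 on the log2 scale. Mitochondrial import proteins and carriers had 16 of 82 lower and 3 higher. TIMM8A, an import chaperone, had 206 at 20 nM and 552 on vehicle, 4.10-fold lower, and SAMM50, which inserts outer membrane proteins, had 399 at 20 nM and 1307 on vehicle, 4.01-fold lower. Of 26 mitochondrial carriers SLC25A25, a calcium-regulated ATP carrier, was the only one past 2-fold upward, with 3997 at 20 nM and 815 on vehicle, 5.12-fold higher.

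Steroid and xenobiotic enzymes had 6 of 58 higher (10.3%) and 10 lower (17.2%), near the background of 14.7% and 16.6%. CYP1A1, a target of the aryl hydrocarbon receptor, had 208 at 20 nM and 129 on vehicle, at least 2.75-fold higher, and CYP2J2, an epoxygenase of arachidonic acid, had 131 at 20 nM and 346 on vehicle, at least 5.93-fold lower.

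Membrane transport genes stood near the background. SLC transporters had 16 of 147 higher and 27 lower. SLC38A2, which imports neutral amino acids with sodium, had 8091 at 20 nM and 1229 on vehicle, 6.56-fold higher, and SLCO4A1, an organic anion transporter, had 707 at 20 nM and 213 on vehicle, 5.40-fold higher. SLC37A4, which carries glucose 6-phosphate into the endoplasmic reticulum, had 336 at 20 nM and 1893 on vehicle, 7.53-fold lower, and SLC46A1, the proton-coupled folate transporter, had 123 at 20 nM and 219 on vehicle, at least 2.88-fold lower.

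ABC transporters and ATP-driven pumps had 5 of 21 higher and 3 lower. ABCG1, which exports cholesterol, had 337 at 20 nM and 149 on vehicle, 4.92-fold higher, and ATP1B1, the beta subunit of the pump that bufalin blocks, had 7160.1 at 20 nM and 2422 on vehicle, 2.86-fold higher. ABCA3, a lipid exporter, had 140.3 at 20 nM and 280.4 on vehicle, 4.31-fold lower.

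Ion channels had 7 of 35 higher (20%) and 5 lower (14.3%), against backgrounds of 14.7% and 16.6%. CLIC4, a chloride channel protein that moves to the nucleus under stress, had 1583 at 20 nM and 571 on vehicle, 3.08-fold higher, and CACNB3, a calcium channel subunit, had 141 at 20 nM and 335 on vehicle, 5.61-fold lower. LRRC8 proteins, which form volume-regulated anion channels, went both ways, with LRRC8E 2.42-fold higher and LRRC8D 2.33-fold lower. Glycosyltransferases and secretory enzymes had 12 of 98 higher and 21 lower. CHST7, a sulfotransferase, had 348 at 20 nM and 139.9 on vehicle, 6.19-fold higher, and PIGM, of GPI anchor synthesis, had 375 at 20 nM and 1294 on vehicle, 4.28-fold lower.

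The motif searched in each promoter was counted on both strands in windows of the RefSeq table, over 27305 genes. The E2F site TTTNNCGC stood in 18 of the 28 lower replication genes with a promoter in the table (64.3%) and in 9 of the 24 other detected replication genes (37.5%). Over all genes of the table it stood in 8.23%, and over the named detected genes in 13.9%. The E-box CACGTG stood in 12 of 25 lower ribosome assembly genes (48.0%) and in 10 of 28 other members of that family (35.7%). Over all genes of the table it stood in 8.77%, and over the named detected genes in 13.6%. Both motifs were frequent in their whole family, also in the members that did not pass 2-fold.

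Among the higher clock genes the E-box stood in 4 of 9 (44.4%), BHLHE40, CIART, NR1D2 and TEF, against 13.6% of the named detected genes. It also stood in 6 of 17 higher leucine zipper and KLF genes (35.3%) and in 4 of 17 higher autophagy genes (23.5%). TEF belongs to both the clock and the leucine zipper group. The E-box did not separate directions over all named genes, where it stood in 14.8% of the genes at least 2-fold higher and 15.8% of those at least 2-fold lower. The CArG box stood in 4 of 25 higher actin and matrix genes (16%), ACTA1, CNN2, FHL2 and TPM4, in 4 of 54 other members (7.41%) and in 1.60% of all genes. The AP-1 site TGANTCA stood in 8.90% of all higher genes and 4.90% of all lower genes, against 6.43% of the named detected genes and 9.37% of all genes. It stood in 0 of the 28 lower replication genes and 0 of the 25 lower ribosome assembly genes. Among the other detected members it stood in 0 of 24 replication genes and 1 of 28 ribosome assembly genes. Its absence thus did not set the lower members apart. The cyclic AMP response element TGACGTCA stood in 5.70% of higher and 3.68% of lower genes, against 4.07% of the named detected genes and 2.25% of all genes, and GABARAPL1, MAFF and JUND were among the higher genes that held it. A match is a run of letters and not a bound site. CCN1, MCM4, METTL1 and HMOX1 had no entry.

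**Figure D5:**
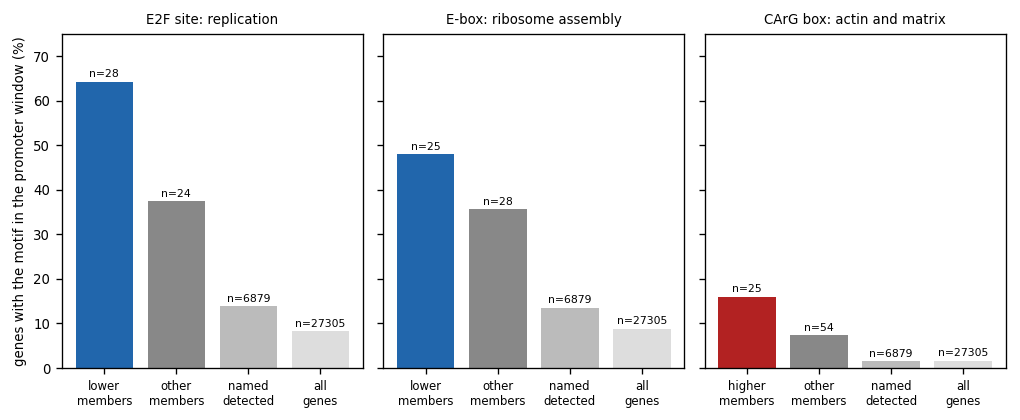
Share of genes with a motif in the promoter window (y axis, percent) for the E2F site in replication genes, the E-box in ribosome assembly genes and the CArG box in actin and matrix genes; n is the number of genes with a promoter. The first bar holds members past 2-fold, the next the other detected members, then all named detected genes and all genes of the table. In each panel the first bar is the highest and the last pair the lowest.

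The labelled cell type was checked against markers of luminal prostate and of other cells. Of 17 luminal markers 14 had a named probe and all 14 were detected, with 2 higher and 6 lower at 20 nM. Their summed signal was 19372 at 20 nM and 21333 on vehicle, to which TMPRSS2 alone gave 5800.1 and 1492. Bright probes weigh most in such a sum, so it does not stand for the typical marker. TMPRSS2, an androgen-regulated protease, had 5800.1 at 20 nM and 1492 on vehicle, 3.75-fold higher, and FOLH1, the prostate membrane antigen, had 1907 at 20 nM and 915 on vehicle, 2.13-fold higher. KLK2, a kallikrein, had 136 at 20 nM and 294 on vehicle, at least 4.70-fold lower, and SLC45A3, prostein, had 646 at 20 nM and 1777 on vehicle, 3.13-fold lower. KLK3, the prostate-specific antigen, read low on its single named probe, 187 at 20 nM and 252 on vehicle.

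No basal marker had a named probe. Of the stromal list VIM, ACTA2 and TAGLN were named and detected, with a summed signal of 2474 at 20 nM and 1831 on vehicle, and TAGLN had 226 at 20 nM and 153 on vehicle, 2.42-fold higher. Of the neuroendocrine list only ENO2 was named, with 155 at 20 nM and 138 on vehicle. Of the leukocyte list CD14, CD68 and HLA-DRA were named, with a summed signal of 1269 at 20 nM and 697 on vehicle, CD14 being at least 2.91-fold and HLA-DRA 3.26-fold higher. The part of these markers in the results above was not tested. In a bulk sample, fewer cells of a type and less RNA per cell cannot be told apart.

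Several probes of 1 gene give the only internal repeat in these data. Of the named genes 1858 had more than 1 detected probe, and the pooled SD of the log2 fold change between probes of a gene was 0.44. Of 450 such genes with a probe at least 2-fold higher, 191 had all their probes past 2-fold (42.4%), and of 431 with a probe at least 2-fold lower, 174 did (40.4%). Only 3 genes had probes past 2-fold in both directions, BTBD7, IMPDH1 and N4BP2L2, which were picked out after their values were seen. Agreement was close for several leading genes, and the 2 probes of GADD45A lay at 3.99 and 4.06 and those of PRIM1 at -3.25 and -3.04.

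Of the 16112 detected probes, 2521 are in the shorter deposited table but have no gene name in the annotation, and 12.5% of them were at least 2-fold higher and 11.8% at least 2-fold lower. The 3 largest upward folds among unnamed probes detected on both arrays belonged to probe ILMN_3243644, with 4496 at 20 nM and 404 on vehicle, 13.8-fold higher, probe ILMN_1770085, with 1003 at 20 nM and 185 on vehicle, 10.4-fold higher, and probe ILMN_2319077, with 694 at 20 nM and 159.7 on vehicle, 9.75-fold higher. The 3 largest downward folds belonged to probe ILMN_1786024, 6.16-fold lower, probe ILMN_1667162, 5.57-fold lower, and probe ILMN_1666553, 5.33-fold lower. The brightest of these was ILMN_1667162, with 1303 at 20 nM and 6302 on vehicle. Their genes were not analysed here.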

How the data were processed

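Total RNA of 3 LNCaP cultures was hybridised to Illumina bead arrays, 1 array each for bufalin 20 nM, bufalin 10 nM and vehicle. The deposited table holds non-normalized intensity values with a detection p-value per probe and array, and BeadStudio 3.0 is named in the submitters' processing notes. A second deposited table repeats these intensities for 13753 probes, and its probe annotation names 8661 genes. Background was corrected with limma 3.58.1 in R 4.3.3 (normexp, background from the deposited detection p-values, offset 16), and the 3 arrays were quantile normalized and set to log2. A probe was kept when detected at p below 0.01 on the 20 nM or the vehicle array. Where a gene had several named probes, the one brightest on average was used, and calls are at 2-fold, with no test since each group has 1 array. The steps were tested on simulated arrays in which a small part of the probes, none of them dim, was changed. That test does not cover folds of dim probes or the spread between cultures.

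Families were built from symbol patterns. The values of 1 family are not reported here. The genes, lists and rules were chosen with earlier results of these data known, and the patterns were corrected for unrelated symbols after values were seen. The text names the 15 largest folds each way on both arrays (8 each way on 1 array), up to 5 members past 2-fold each way in each family, and markers. Alternatives in background correction, normalization, offset, detection, bounds, threshold and choice of probe are given in the closing section. The number of arrays, 1 in each group, limits the precision.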

Additional observations from a re-analysis of the deposited data

How the results depend on the processing

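Each count of probes or genes past 2-fold stayed within 1.5 times its value under median scaling, no normalization between arrays, quantile normalization over the 2 arrays alone, detection on both arrays, a detection p-value below 0.05, bounds for genes detected on 1 array, and, for genes, the mean of all probes or the probe with the smallest change. Without background correction 758 probes were higher and 722 lower, and 551 genes were higher and 544 lower. On the deposited intensities as given 768 probes were higher and 719 lower, and 556 genes were higher and 539 lower. With an offset of 50 the counts were 1217 probes higher and 1216 lower, and 836 genes higher and 891 lower. At 1.5-fold they were 3856 probes higher and 4098 lower, and 2296 genes higher and 2617 lower. An added offset or a retained background draws folds of dim probes towards 1 by construction, and the lower threshold admits more.

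Of 45 family and group medians past 0.5 in either direction, 44 kept their sign in all 11 alternatives. The exception was the TBC1D proteins, at -0.10 over genes detected on both arrays. Folds of single genes depended on the background far more. Of 615 named genes, 374 moved by more than the SD between probes of a gene, 0.44 on the log2 scale, without background correction, 365 on the deposited intensities, 180 with an offset of 50, 70 with the probe of smallest change, 60 with bounds and 36 with the mean of probes. In these alternatives 3 reversed, all when the probe with the smallest change stood for the gene: EIF5 at 0.74, FBXO4 at 0.89 and UQCR10 at -0.21 on the log2 scale. The cause was not tested. No paired analysis was possible because each group has 1 array and the labels carry no replicate number. With 1 array a group, no spread between cultures is known, and signals near the background limit folds of dim probes most.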
